A study of Arabidopsis thaliana with 28 samples.

Results

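The 50 genes described here are nuclear genes of the photosynthetic light reactions in Arabidopsis thaliana, taken from a fixed list of locus identifiers. They encode 6 antenna proteins of photosystem I (LHCI), 9 proteins of the trimeric antenna of photosystem II (LHCII), 5 minor antenna proteins of photosystem II with the related LHCB7, 12 photosystem I subunits, 10 photosystem II subunits, 5 proteins of electron transport and 2 subunits of the ATP synthase. All 50 were found among the 33557 entries of the table, and all 50 passed the filter of at least 1 FPKM in at least 2 pools, which 20034 entries passed. Their expression was measured by RNA sequencing in seedlings of the Col-0 wild type. A first set of seedlings was treated with ABA (abscisic acid, a hormone made in drying plants and maturing seeds), the other with ethanol as the mock, and both were collected after 0.5, 1, 3, 6, 9, 12 and 24 h. The 28 libraries form 14 groups of 2, and the deposited table gives 1 FPKM value (fragments per kilobase of transcript and 1000000 fragments) for each gene and group. These pooled values carry no replicate error. ABA dose, seedling age and light regime were not stated in the labels, so that time after treatment and time of day cannot be told apart.

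In the light reactions, the antenna proteins bind chlorophyll and pass excitation energy to the reaction centres of the photosystems. Photosystem II oxidises water, the cytochrome b6f complex and plastocyanin carry electrons on to photosystem I, ferredoxin and its reductase deliver them to NADP, and the resulting proton gradient drives the ATP synthase. The reaction centre cores are encoded in the plastid, whereas nearly all antenna proteins and many peripheral subunits are encoded in the nucleus, and ABA is known as a repressor of many of these nuclear genes in leaves and seedlings.

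The light-reaction mRNAs were among the most abundant of the seedlings and held a share of the summed FPKM that was more than 2-fold lower at its minimum than at 0.5 h in both arms, and higher again at 24 h. In the mock pools the 50 genes made up 17.7% of the summed FPKM at 0.5 h, 16.5% at 1 h, 13.1% at 3 h, 9.69% at 6 h, 8.63% at 9 h, 6.57% at 12 h and 8.98% at 24 h. The share in the ABA pools was 18.6%, 16.8%, 10.2%, 7.53%, 8.42%, 9.15% and 11.8% at the same times. The ABA pools thus had the smaller share at 3, 6 and 9 h and the larger share at 12 and 24 h. Because whole seedlings were sampled, fewer photosynthetic cells and less RNA per cell cannot be told apart.

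**Figure D1:**
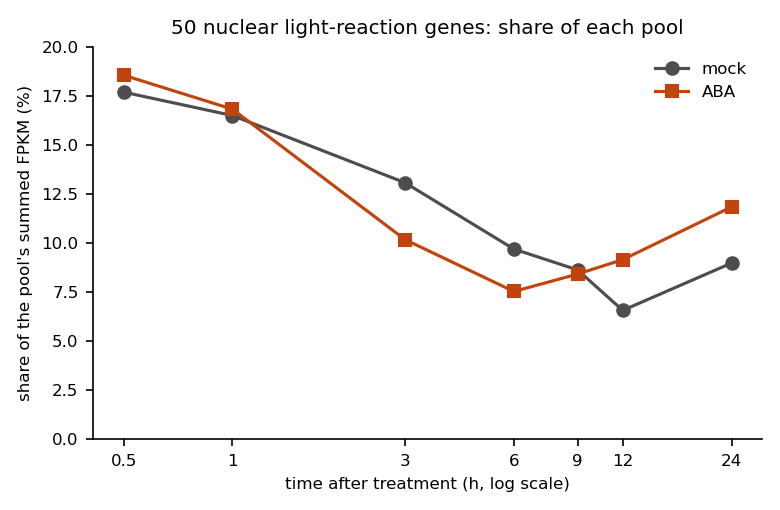
Share of each pool's summed FPKM held by the 50 light-reaction genes (y axis, %) against time after treatment (x axis, h, log scale), with circles for mock and squares for ABA and 1 pooled value per point. The mock share has its lowest point at 12 h (6.57%), the ABA share at 6 h (7.53%).

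The lowest point came at different times in the arms. In mock, all 50 genes had their lowest level at 12 h, and the highest was at 0.5 h for 45 genes and at 1 h for the other 5 (PSAD1, PSAD2, PSAF, PSAG and PSBY). Under ABA, 29 genes were lowest at 6 h and 17 at 9 h, with 3 lowest at 12 h (LHCB1.4, LHCB1.5 and PSAE2) and LHCB4.3 at 24 h. A lowest mock value at 12 h together with a lowest ABA value at 6 or 9 h was found in 46 of the 50, in 4% of all 20034 genes tested and in 14.3% of the 1799 genes with a mean of at least 100 FPKM. This combination was taken from the members' own lowest points, so that their higher share is no test of a difference. From 0.5 to 12 h the median ratio of the first to the later level was 3.31 in mock (range 1.82 to 20.9) and 2.05 under ABA (range 0.903 to 8.70).

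Against the mock of the same time, the members had little difference at 0.5 and 1 h, were lower under ABA at 3 and 6 h, and were higher at 12 and 24 h. The ABA effect, the log2(FPKM + 1) of the ABA pool minus that of the mock pool, had a median over the 50 genes of -0.090 at 0.5 h, 0.036 at 1 h, -0.36 at 3 h, -0.35 at 6 h, -0.091 at 9 h, 0.65 at 12 h and 0.32 at 24 h. The median over all genes tested stayed between -0.026 and 0.032. Genes with a mean of at least 100 FPKM (1799) had medians of -0.11, 0.042, -0.056, -0.014, -0.082, 0.13 and -0.22, in order of time. Below 0 were 33, 21, 41, 41, 30, 2 and 14 of the 50 at the 7 times.

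The authors' deposited table marks each gene and time as changed or not, and its calls followed the same order. At 0.5 h the authors' deposited table called 1 member higher and 3 lower, where 10.2% and 11.3% of all genes tested were called higher and lower. For 1 h it called 1 higher and 1 lower, against 15.5% and 10.2% of all genes. In the 3 h comparison it called 1 member higher and 21 lower, which is 42% of the members against 20.1% of all genes called lower and 24.8% called higher. Of the 50, it called 2 higher and 23 lower at 6 h (46%), against 22.2% and 21.4% of all genes. At 9 h the calls were 4 higher and 8 lower, against 17.7% and 18.4%. By 12 h the authors' deposited table called 39 members higher (78%) and 1 lower, against 18.7% and 17.9% of all genes. For 24 h the calls were 20 higher (40%) and 2 lower, against 19.2% and 18.7%. Among the 1799 genes with a mean of at least 100 FPKM, a level that 48 of the 50 members have, lower calls were given to 31.5% at 3 h and 33.6% at 6 h, and higher calls to 33.4% at 12 h and 19.5% at 24 h. Few of the members' differences reached 2-fold: 2 of the 21 lower calls at 3 h, 1 of the 23 at 6 h, 7 of the 39 higher calls at 12 h and 5 of the 20 at 24 h.

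By the authors' deposited table, 49 of the 50 genes were called at some time, LHCB4.1 being the exception. A lower call at 3 or 6 h was given to 25 and a higher call at 12 or 24 h to 42. Both kinds of call were given to 18 (36%), a combination held by 1.62% of all genes tested and by 4.34% of the genes with a mean of at least 100 FPKM. The combination was taken from the members' own course, so that their higher share is no test of a difference. Those 18 came from every complex except electron transport: LHCA1, LHCA6, LHCB1.2, LHCB2.2, LHCB2.3, LHCB3, LHCB4.2, LHCB5, LHCB6, PSAD1, PSAD2, PSAF, PSBO2, PSBP1, PSBX, PSBY, PSBTN and ATPD. A higher call at 3 or 6 h was given to LHCB1.4 and PETE1, and a lower call at 12 or 24 h to LHCB4.3 and PSAN.

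**Figure D2:**
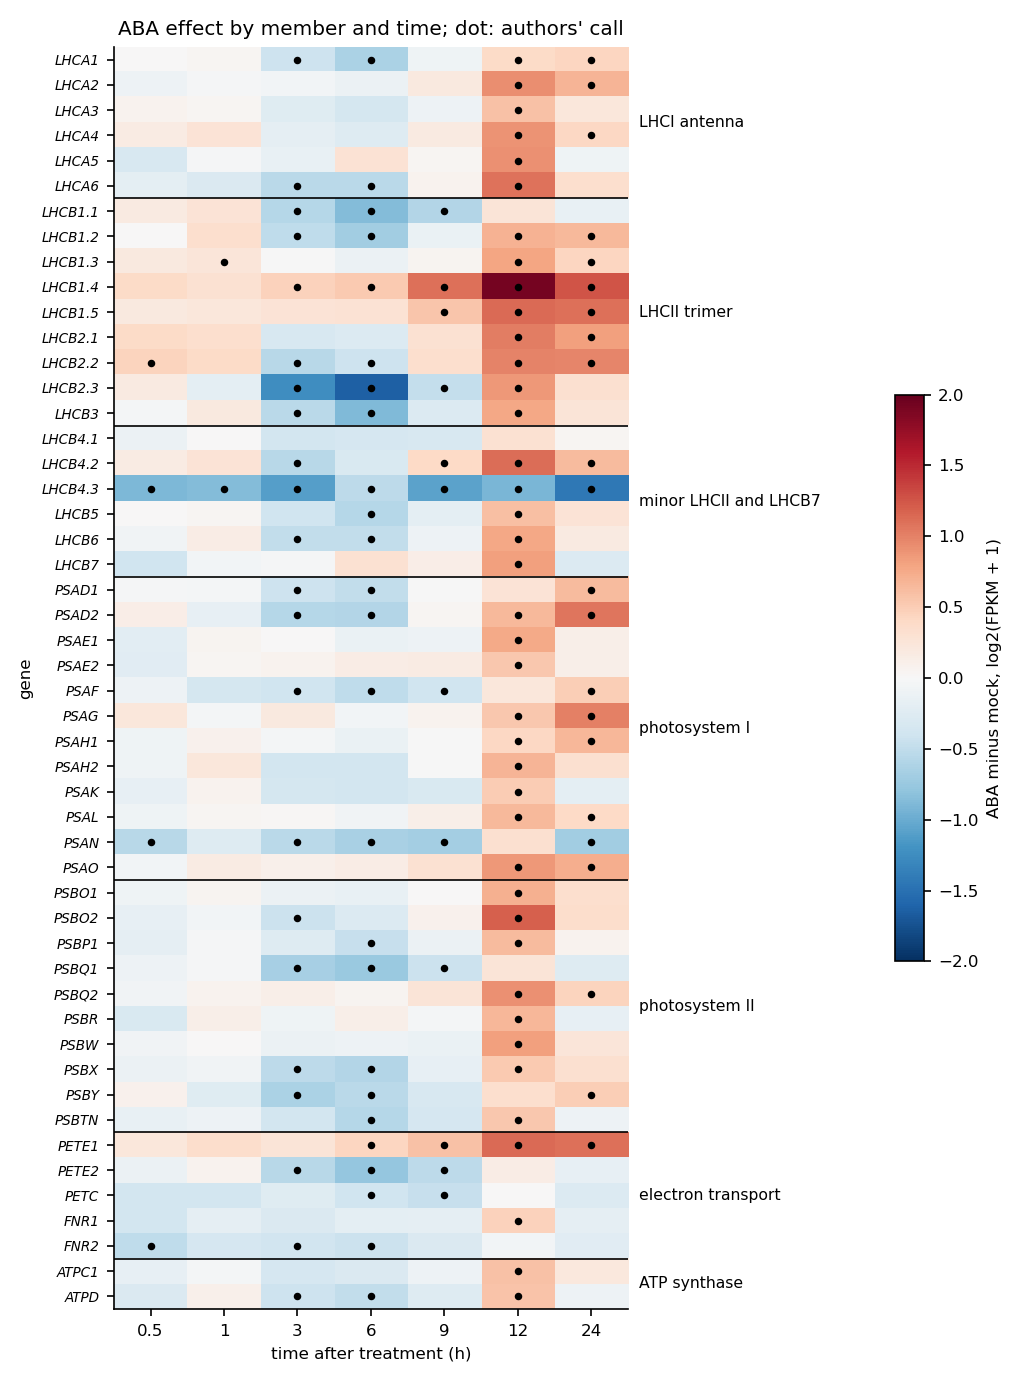
ABA effect of each of the 50 genes (rows, grouped by complex) at each time (columns, h), coloured from blue (lower under ABA) to red (higher) on the log2(FPKM + 1) scale, with a dot where the authors called the gene changed. The columns at 3 and 6 h are mostly blue (41 of 50 genes below 0 at each) and the column at 12 h is mostly red (48 of 50 above 0), while LHCB1.4, LHCB1.5 and PETE1 are red and LHCB4.3 and FNR2 blue at all 7 times.

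Since the pools leave no spread within a group, the spread between times was used as the error in limma fits over all 20034 genes, with Benjamini-Hochberg adjustment. The mean of the 7 ABA effects passed an adjusted p of 0.05 upwards in LHCB1.4, LHCB1.5 and PETE1 and downwards in LHCB4.3, PSAN, FNR2 and PETC. Among all genes 23.9% passed upwards and 23.2% downwards, so that the 3 and 4 members are a smaller share than the background. LHCB1.4, LHCB1.5, PETE1, LHCB4.3 and FNR2 had effects of 1 sign at all 7 times and the other members of both signs, and the median of the 50 averages was 0.036. LHCB4.3 had the largest averaged effect of the members in size, -0.97 ± 0.10 (SE) with an adjusted p of 0.000201 in limma, and LHCB1.4 had 0.85 ± 0.20 (SE) with 0.00816. The averaged effects of PETE1 and LHCB1.5 were 0.58 ± 0.13 (SE) and 0.54 ± 0.15 (SE), with adjusted p of 0.00755 and 0.0188 in limma. Those of PSAN, FNR2 and PETC were -0.43 ± 0.14 (SE), -0.32 ± 0.082 (SE) and -0.30 ± 0.088 (SE), with adjusted p of 0.0275, 0.0122 and 0.0215. PSAN no longer passed without the 0.5, 3, 6, 9 or 24 h pair (adjusted p 0.0567 to 0.0804 in limma) and PETC not without 0.5, 3, 6 or 9 h (0.0505 to 0.0736). With no filter on low values, LHCB1.5 also missed the threshold (0.094).

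The turn from lower to higher was compared by subtracting the mean ABA effect of the 3 and 6 h pairs from the mean of the 9, 12 and 24 h pairs. These phases were set with earlier results of these data known, so that the counts below are no independent support for the turn. The difference was above 0 in 49 of the 50 genes, all but LHCB4.3, with a median of 0.54. No member passed in limma after adjustment, and over all genes 0.00499% passed in each direction, which is 1 gene each way. At an unadjusted p under 0.05, 22 members passed, all upwards, against 19.1% of all genes in either direction. By complex these were 7 of 9 LHCII trimer genes, 4 of 6 LHCI genes, 3 of 6 minor antenna genes, 3 of 12 photosystem I genes, 3 of 10 photosystem II genes, 1 of 5 electron transport genes and 1 of 2 ATP synthase genes. Without the 9 h pair, 2 members passed after adjustment. Set against 0.5 and 1 h, the late effect was larger in LHCB1.4 alone after adjustment (1.08 ± 0.26 (SE), adjusted p 0.031 in limma), where 6.63% of all genes passed upwards and 7.72% downwards. This call was lost without any of the 0.5, 1, 3 or 6 h pairs (adjusted p 0.0577 to 0.148), and 5 members passed without the 9 h pair.

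The change over time within each arm was fitted as a slope on log2 hours. In mock, all 50 slopes were below 0, with a median of -0.29 log2 units for each doubling of time. After adjustment 45 passed in limma, where 14.9% of all genes passed downwards and 14% upwards. The 5 that did not pass were ATPD, LHCA5, LHCB1.1, LHCB7 and PSBR. The count was 16 without the 0.5 h mock pool, 19 without the 1 h pool and 50 without the 24 h pool. Under ABA, all 50 slopes were also below 0, with a median of -0.21. After adjustment 10 passed (FNR1, FNR2, LHCB1.4, LHCB1.5, LHCB4.1, LHCB4.3, PETC, PSAE2, PSAH1 and PSAL). Of all genes 9.88% passed downwards and 7.27% upwards. Without the 24 h ABA pool the count was 35, and without the 1 h or the 12 h pool it was 2. A difference between the slopes of the arms was not tested.

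Comparing the complexes, the LHCII trimer genes had the deepest course in mock and the ATP synthase genes the shallowest. The ratio of the 0.5 h to the 12 h mock level was taken gene by gene. Its median was 5.37 in the LHCII trimer genes, 3.99 in LHCI, 3.74 in the minor antenna and 3.34 in electron transport. In photosystem II the median ratio was 3.11, in photosystem I 2.96 and in the ATP synthase 2.37. The ranges of the complexes overlapped, from 2.68 to 20.9 in the LHCII trimer and from 2.36 to 4.01 in photosystem I. The median ABA effect at 3 h was lowest in the LHCII trimer (-0.51) and the minor antenna (-0.45), followed by the ATP synthase (-0.38), photosystem II (-0.31), electron transport (-0.29), LHCI (-0.21) and photosystem I (-0.20). At 12 h the order from the top was LHCI (0.90), the LHCII trimer (0.87), the minor antenna (0.69), photosystem II (0.64), the ATP synthase (0.58), photosystem I (0.53) and electron transport (0.15). Electron transport was the one group whose median was back below 0 at 24 h (-0.19), and the LHCII trimer had the highest (0.65). No test of a difference between complexes was made, since genes of a complex are not replicates.

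**Figure D3:**
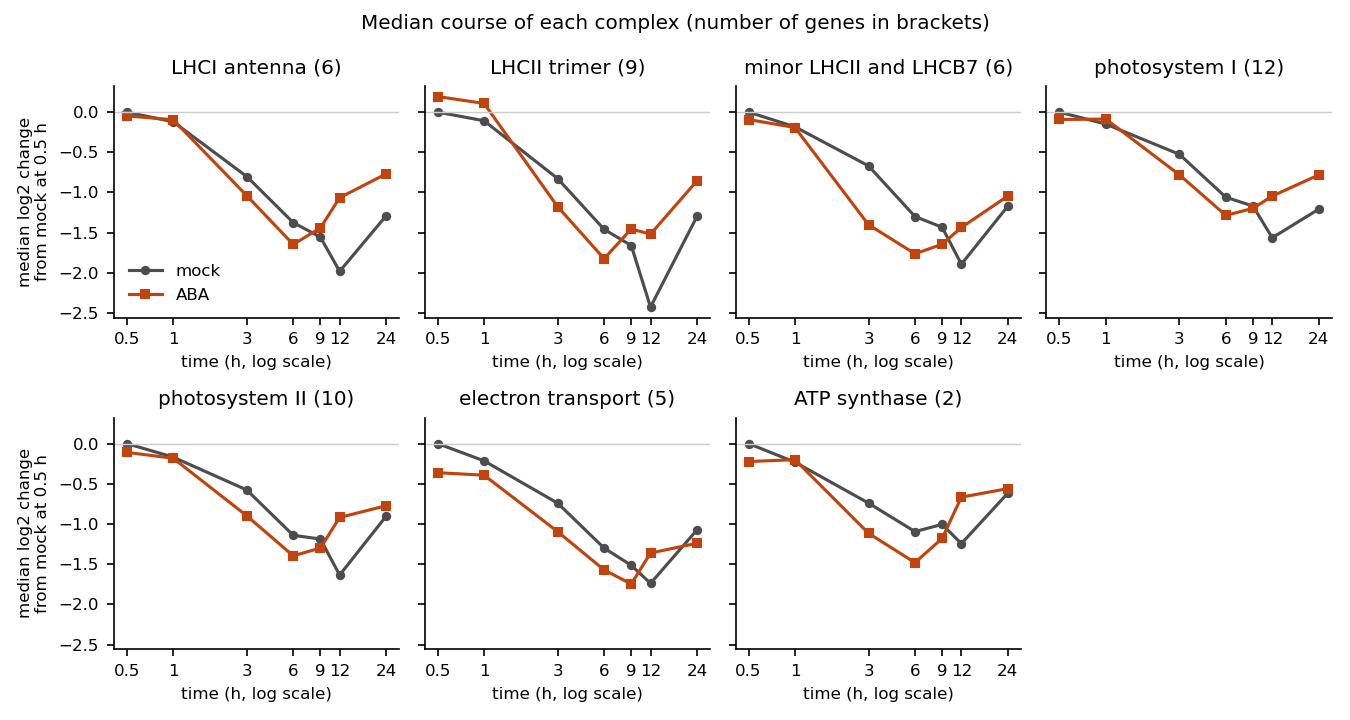
Median log2 change from the mock pool at 0.5 h (y axis) against time (x axis, h, log scale) for the genes of each complex, circles for mock and squares for ABA, with the number of genes in brackets. In each panel the ABA line lies below the mock line at 3 and 6 h and above it at 12 h, and the deepest mock point is that of the LHCII trimer at 12 h (-2.42).

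The LHCII trimer, the major light-harvesting antenna, is encoded by the LHCB1, LHCB2 and LHCB3 genes, and its 9 genes summed to 71071 FPKM in mock at 0.5 h. LHCB1 has 5 copies: LHCB1.1, LHCB1.2 and LHCB1.3 lie together on chromosome 1 (chr1:10472280-10479114) and LHCB1.4 and LHCB1.5 lie together on chromosome 2 (chr2:14522524-14525918), in TAIR10.1 coordinates. The copies are close in sequence, which bears on how far reads could be assigned to each. Their coding sequences were 95.6 to 96.4% identical within the chromosome 1 group, 91.4% within the chromosome 2 pair and 86.7 to 90.4% between the groups. Of all 50-base words of the transcripts, 10.6 to 20.5% were shared with another copy, so that reads within such stretches may not be placed on 1 copy alone. Multi-mapping was not measured, and the labels do not say how the authors counted such reads. The last 60 coding bases of each copy are shown, with bases that differ from LHCB1.3 in capitals, some of them shared across the groups (RefSeq, TAIR10.1, 5′ to 3′ on the coding strand).
LHCB1.1: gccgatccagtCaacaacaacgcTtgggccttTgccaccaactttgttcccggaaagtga
LHCB1.2: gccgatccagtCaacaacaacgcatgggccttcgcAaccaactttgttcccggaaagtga
LHCB1.3: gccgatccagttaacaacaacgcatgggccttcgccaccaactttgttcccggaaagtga
LHCB1.4: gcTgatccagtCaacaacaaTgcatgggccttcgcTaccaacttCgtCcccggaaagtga
LHCB1.5: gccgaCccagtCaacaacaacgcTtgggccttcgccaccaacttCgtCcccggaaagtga
In this window LHCB1.1 and LHCB1.2 differed from LHCB1.3 at 3 and 2 bases, and LHCB1.4 and LHCB1.5 at 6 and 5.

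LHCB1.3 (AT1G29930) was the most abundant member. LHCB1.3 gave 29628, 26002, 20500.2, 14459, 12891, 8903 and 14459.9 FPKM under mock over the 7 times and 33924, 30768, 20421, 13336, 13379, 15410.3 and 19549.8 FPKM under ABA. It was close to the mock at 3, 6 and 9 h (effects of -0.0056, -0.12 and 0.054) and was called higher by the authors' deposited table at 1, 12 and 24 h. LHCB1.1 levels were 7239, 6439.8, 4766, 3750.1, 3953, 2706 and 5815 FPKM in mock and 8164, 7796, 3202, 2046, 2642, 3232 and 5269 FPKM in ABA seedlings, in order of time. LHCB1.1 (AT1G29920) was below the mock at 3, 6, 9 and 24 h and was called lower at 3, 6 and 9 h. LHCB1.2 stood at 7412, 5468, 4178, 2697, 2346, 1354 and 2551 FPKM in the mock pools from 0.5 to 24 h, and at 7488, 6925, 2927, 1670.2, 2144, 2188 and 3993 FPKM in the ABA pools. LHCB1.2 (AT1G29910) was called lower at 3 and 6 h and higher at 12 and 24 h.

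The chromosome 2 copies had another course. LHCB1.4 gave 4314, 4058, 1811, 780.2, 523, 207 and 512 FPKM under mock over the 7 times and 5604, 5023, 2502, 1124, 1127, 785 and 1224 FPKM under ABA. LHCB1.4 (AT2G34430) was above its mock at all 7 times and was called higher by the authors' deposited table from 3 to 24 h; its mock level was 20.9-fold lower at 12 h than at 0.5 h, the widest ratio of the 50. LHCB1.5 levels were 9965, 9246, 5184, 3334, 2698, 1579 and 2573 FPKM in mock and 11394, 10816, 6271, 4059, 3961, 3479 and 5507 FPKM in ABA seedlings, in order of time. LHCB1.5 (AT2G34420) was also above its mock at all 7 times and was called higher at 9, 12 and 24 h. At 6 h the ABA effect of LHCB1.4 exceeded that of LHCB1.1 by 1.401 and that of LHCB1.5 exceeded it by 1.16 on the log2 scale, whereas at 1 h the differences were 0.032 and -0.049. These differences between copies have no replicate error and were not tested. The 5 copies together held 24.9 to 28.3% of the members' summed FPKM in mock and 27 to 32.1% under ABA.

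**Figure D4:**
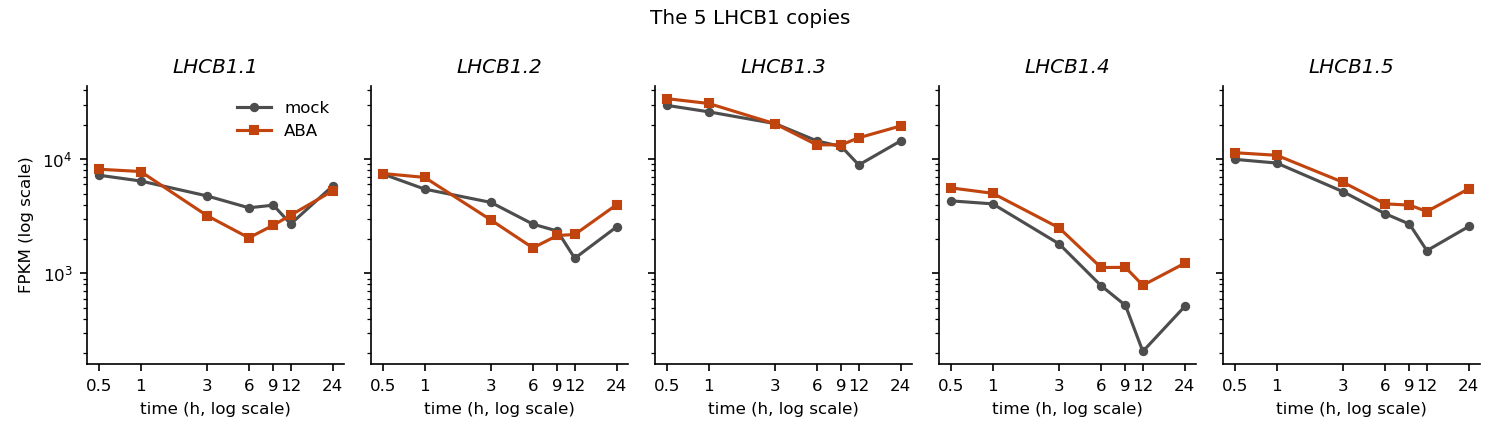
FPKM of the 5 LHCB1 copies (y axis, log scale) against time (x axis, h, log scale), circles for mock and squares for ABA, with 1 pooled value per point. The ABA line crosses below the mock line at 3 and 6 h in LHCB1.1 and LHCB1.2, lies near it at these times in LHCB1.3, and stays above it in LHCB1.4 and LHCB1.5.

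The 250 bases before the annotated starts of LHCB1.1 and LHCB1.4, the copies with the lowest and the highest averaged ABA effect of the 5, are shown with the motifs found on either strand in capitals (RefSeq, TAIR10.1). Both hold 1 match to ACGTGNC, the core of the ABA-responsive element, and 1 match to AAAAATCT, a binding site of the clock factor CCA1.
LHCB1.1, chr1:10475970-10476219, minus strand: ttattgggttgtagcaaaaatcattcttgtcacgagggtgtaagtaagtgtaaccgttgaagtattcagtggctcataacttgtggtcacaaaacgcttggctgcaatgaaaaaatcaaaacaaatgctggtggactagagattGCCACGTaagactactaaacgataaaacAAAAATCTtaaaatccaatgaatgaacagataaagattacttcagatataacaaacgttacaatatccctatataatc
LHCB1.4, chr2:14524357-14524606, plus strand: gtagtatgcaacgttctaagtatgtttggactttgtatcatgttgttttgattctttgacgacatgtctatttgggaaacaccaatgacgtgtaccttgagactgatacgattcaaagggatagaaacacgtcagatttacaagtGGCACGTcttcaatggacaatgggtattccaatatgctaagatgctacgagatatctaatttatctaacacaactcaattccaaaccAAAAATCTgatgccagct
The matches to ACGTGNC begin at -106 and -105 and those to AAAAATCT at -78 and -18 from the starts. LHCB1.1 and LHCB1.4 hold the same motifs of those searched, at partly different positions, and had effects of opposite sign at 3 and 6 h. Whether the motifs bear on the effects was not tested. LHCB1.3 holds 2 overlapping matches to ACGTGNC and 1 to CCAATC, LHCB1.5 holds 1 to CCAATC, and LHCB1.2 holds none of the motifs searched in this window.

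The LHCB2 proteins are among the phosphorylated LHCII subunits of state transitions, in which antenna moves between the photosystems. LHCB2.1 stood at 3506, 3357, 2134, 1556, 1378, 981 and 1647 FPKM in the mock pools from 0.5 to 24 h, and at 4594, 4245, 1703, 1290.0, 1710.0, 1992 and 2903 FPKM in the ABA pools. LHCB2.2 gave 2203, 2101, 1306, 881, 773, 539 and 895 FPKM under mock over the 7 times and 3012, 2749, 884, 658, 974, 1069.9 and 1759 FPKM under ABA. LHCB2.1 and LHCB2.2, which share 22.7 and 28.2% of their 50-base words with each other, went together: above the mock at 0.5 and 1 h, below it at 3 and 6 h and above it from 9 h on. Both were called higher at 12 and 24 h, and LHCB2.2 also higher at 0.5 h and lower at 3 and 6 h. LHCB2.3 levels were 1325, 1319, 408, 178, 166, 94.5 and 224 FPKM in mock and 1505, 1151, 172, 57.0, 119, 173 and 280.2 FPKM in ABA seedlings, in order of time. LHCB2.3 (AT3G27690), which shares no such word with them, had the lowest ABA effects of the 50 at 3 and 6 h, -1.24 and -1.63, and was called lower at 3, 6 and 9 h and higher at 12 h by the authors' deposited table. Under ABA its level went from 1505 to 57.0 FPKM between 0.5 and 6 h, a 26.4-fold difference and the widest of the 50 between these times. LHCB3, which joins LHCB1 and LHCB2 in a part of the trimers, lay between 1019.8 and 5479 FPKM in mock and between 1003 and 5344 FPKM under ABA, and was called lower at 3 and 6 h (-0.54 and -0.88) and higher at 12 h (0.78).

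The minor antenna proteins CP29 (LHCB4), CP26 (LHCB5) and CP24 (LHCB6) link the trimers to the photosystem II core. LHCB5 stood at 5855, 5074, 3325, 2134, 1867, 1402 and 2338 FPKM in the mock pools from 0.5 to 24 h, and at 5874, 5214, 2518, 1433, 1627, 2129 and 2816 FPKM in the ABA pools. LHCB5 was called lower at 6 h and higher at 12 h by the authors' deposited table. LHCB4.1 gave 4984, 4752, 3489, 2388, 2091, 1510.2 and 2286 FPKM under mock over the 7 times and 4597, 4766, 2716, 1897, 1677, 1874 and 2352 FPKM under ABA. LHCB4.1 had effects between -0.36 and 0.31 and was the single member never called. LHCB4.2 levels were 2359, 2012, 1142, 801, 705, 435 and 794 FPKM in mock and 2639.6, 2422, 779, 651, 928, 945 and 1231 FPKM in ABA seedlings, in order of time. LHCB4.2 was called lower at 3 h and higher at 9, 12 and 24 h, with an effect of 1.12 at 12 h.

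LHCB4.3 (AT2G40100, chr2:16745628-16747424), a variant of CP29 known for its expression under light stress, was below its mock at all 7 times, as was FNR2. LHCB4.3 stood at 102, 98.4, 70.8, 45.7, 52.2, 44.9 and 62.4 FPKM in the mock pools from 0.5 to 24 h, and at 54.2, 53.4, 32.5, 31.4, 24.3, 23.4 and 22.5 FPKM in the ABA pools. The authors' deposited table called it lower at all 7 times. The highest of its 7 ABA values, 54.2 FPKM at 0.5 h, was below 4 of its 7 mock values, the mock pools at 6, 9 and 12 h being the lower ones. At 24 h the FPKM level, which is per length, was 36.6-fold higher for LHCB4.1 than for LHCB4.3 in mock and 104.6-fold higher under ABA. LHCB6 lay between 1147 and 5425 FPKM in mock and between 1242 and 5171 FPKM under ABA, with lower calls at 3 and 6 h and a higher call at 12 h. LHCB7, a rare antenna-like protein whose place in the photosystem is less well known, was measured at 8.85 to 19.99 FPKM in mock and 12.04 to 17.1 FPKM under ABA, and was called higher at 12 h.

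The LHCI antenna of photosystem I is built mainly from LHCA1 to LHCA4, while LHCA5 and LHCA6 attach the NDH complex, which works in cyclic electron flow, to photosystem I. All 6 genes were called higher at 12 h by the authors' deposited table, and none was called at 0.5, 1 or 9 h. At 12 h, higher calls were given to 18.7% of all genes and to 33.4% of the genes with a mean of at least 100 FPKM. LHCA2 gave 4877, 4557, 2966, 2069, 1752, 1329 and 1884 FPKM under mock over the 7 times and 4540.0, 4505, 2865, 1899.7, 1997, 2532 and 3018 FPKM under ABA. LHCA2 differed little from the mock up to 6 h and was above it by 0.93 at 12 h and 0.68 at 24 h. LHCA1 levels were 4271, 4080.3, 2311, 1413, 1182, 831 and 1386 FPKM in mock and 4295, 4186, 1741, 909, 1115, 1082 and 1863 FPKM in ABA seedlings, in order of time. LHCA1 was called lower at 3 and 6 h and higher at 12 and 24 h. LHCA3 and LHCA4 spanned 1092 to 5212 FPKM in mock and 1342 to 5810 FPKM under ABA. LHCA5 and LHCA6 were less abundant, at 48.9 to 337 FPKM in mock and 34.1 to 283 FPKM under ABA, and LHCA6 had the highest effect of the group at 12 h (1.09). LHCA2 shares 8.76% of its 50-base words with AT5G28450, a gene outside the list, so that reads may be split between these loci.

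Photosystem I carries small nuclear subunits on its stromal side (PSAD, PSAE), on its lumenal side (PSAF, PSAN) and on its flanks (PSAG, PSAH, PSAK, PSAL, PSAO). Lower calls went to 4 of the 12 genes at 3 h, 4 at 6 h and 2 at 9 h, and 9 were called higher at 12 h and 7 at 24 h, by the calls of the authors' deposited table. Lower calls were given to 20.1, 21.4 and 18.4% of all genes at 3, 6 and 9 h, and to 31.5, 33.6 and 33.5% of the genes with a mean of at least 100 FPKM, beside 33.3, 33.3 and 16.7% of the 12. Higher calls at 12 and 24 h were given to 18.7 and 19.2% of all genes. Among the genes with a mean of at least 100 FPKM these shares were 33.4 and 19.5%. PSAE1 stood at 4776, 4246, 3430.0, 2619.7, 2512, 1639.7 and 2963 FPKM in the mock pools from 0.5 to 24 h, and at 4106, 4422, 3461, 2389, 2341, 2779.9 and 3206 FPKM in the ABA pools. PSAE2 gave 2298, 1938, 1597, 1158, 1048, 726 and 1028 FPKM under mock over the 7 times and 1966, 1996, 1680.5, 1289, 1179.6, 1052 and 1114 FPKM under ABA. The PSAE genes, which encode a ferredoxin docking subunit, had effects between -0.22 and 0.17 up to 9 h and were called higher at 12 h alone. PSAD1 levels were 2806, 2843, 1960.3, 1542, 1429, 1190.5 and 1324 FPKM in mock and 2775, 2779, 1466, 1101, 1418, 1441 and 2061 FPKM in ABA seedlings, in order of time. PSAD2 stood at 585, 598, 274, 234, 241, 195 and 229 FPKM in the mock pools from 0.5 to 24 h, and at 640.3, 535, 183, 156, 247, 306 and 483 FPKM in the ABA pools. Both PSAD genes, for the other ferredoxin docking subunit, were called lower at 3 and 6 h and higher at 24 h, and PSAD2 also at 12 h.

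PSAH1 gave 2013, 1922, 1540.3, 1108, 947, 723 and 740.2 FPKM under mock over the 7 times and 1888, 2044, 1499, 1008, 946, 967 and 1178 FPKM under ABA. PSAH2 levels were 2479.7, 2041, 1437, 983, 919, 708 and 1143 FPKM in mock and 2332, 2398, 1114, 766, 911, 1136 and 1431 FPKM in ABA seedlings, in order of time. PSAH, which docks LHCII during state transitions, was called higher at 12 h for both genes and at 24 h for PSAH1, and PSAH2 had effects of -0.37 and -0.36 at 3 and 6 h without a call. PSAO stood at 4659, 4049, 2693, 1806, 1673, 1305 and 1826 FPKM in the mock pools from 0.5 to 24 h, and at 4493, 4536, 2901, 1999, 2059.6, 2385 and 3014 FPKM in the ABA pools. PSAO, a further subunit of the docking side, had the highest averaged effect of the photosystem I genes (0.32) and was called higher at 12 and 24 h. PSAN gave 4345, 3319.8, 2415, 1547, 1398, 1084 and 2235 FPKM under mock over the 7 times and 2965, 2784, 1670.4, 985, 874, 1349.9 and 1382 FPKM under ABA. PSAN (AT5G64040), a lumenal subunit on the plastocyanin side, was below the mock at 6 of 7 times and was called lower at 0.5, 3, 6, 9 and 24 h. At 24 h the effects of PSAN and PSAK were -0.69 and -0.20, whereas the other 10 genes were above the mock by 0.11 to 1.07. PSAF, PSAG, PSAK and PSAL spanned 1050.2 to 4856 FPKM in mock and 987 to 4556 FPKM under ABA, with PSAF called lower at 3, 6 and 9 h and higher at 24 h, and PSAG at its highest effect at 24 h (1.01).

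In photosystem II the extrinsic proteins PSBO, PSBP and PSBQ stabilise the water-oxidising cluster, and PSBR, PSBW, PSBX, PSBY and PSBTN are small subunits. Of the 10 genes, 8 were called higher at 12 h, 4 lower at 3 h and 5 lower at 6 h by the authors' deposited table. The shares of all genes with these calls were 18.7, 20.1 and 21.4%. Among the genes with a mean of at least 100 FPKM they were 33.4, 31.5 and 33.6%. PSBR levels were 15083, 11191, 9298, 6812, 6876, 4616 and 8860.1 FPKM in mock and 12146, 12134, 8750.1, 7381, 6675, 7288 and 7916 FPKM in ABA seedlings, in order of time. PSBR was the most abundant of them and was called at 12 h alone. PSBO1 stood at 5512, 4906, 3811, 2609, 2263, 1762 and 2728 FPKM in the mock pools from 0.5 to 24 h, and at 5182, 5085, 3530.2, 2363, 2282, 2869.9 and 3434 FPKM in the ABA pools. PSBO2 gave 2052, 1814, 1238, 710.1, 699, 509.7 and 1011 FPKM under mock over the 7 times and 1828, 1746, 923, 584, 742, 1163 and 1290.4 FPKM under ABA. PSBO2 was called lower at 3 h, and both were called higher at 12 h, with effects of 0.70 for PSBO1 and 1.19 for PSBO2.

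PSBQ1 levels were 3295, 2957, 2192, 1613, 1450.2, 1318 and 1930.4 FPKM in mock and 3071, 2919.9, 1379, 967, 1074, 1583 and 1622 FPKM in ABA seedlings, in order of time. PSBQ2 stood at 1946, 1698, 1138, 821, 677, 473 and 852 FPKM in the mock pools from 0.5 to 24 h, and at 1861, 1781, 1238, 850.4, 807, 896 and 1155 FPKM in the ABA pools. The PSBQ genes parted from each other: PSBQ1 (AT4G21280) was called lower at 3, 6 and 9 h, and PSBQ2 (AT4G05180) was called higher at 12 and 24 h. The ABA effect of PSBQ2 exceeded that of PSBQ1 at 7 of 7 times, by 0.037 at 0.5 h and by up to 0.79 at 3 h. The ratio of the PSBQ2 to the PSBQ1 level was 0.591 at 0.5 h and 0.359 at 12 h in mock, and 0.606 and 0.566 under ABA. PSBP1, PSBW, PSBX, PSBY and PSBTN spanned 707 to 5116 FPKM in mock and 529.9 to 4528 FPKM under ABA, with PSBX and PSBY called lower at 3 and 6 h and PSBP1 and PSBTN at 6 h.

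The 5 electron transport genes encode plastocyanin (PETE1 and PETE2), the Rieske iron-sulfur protein of the cytochrome b6f complex (PETC) and ferredoxin-NADP reductase (FNR1 and FNR2). PETE2 gave 6026, 5142, 4025, 2755, 2576, 2010.3 and 2868 FPKM under mock over the 7 times and 5556, 5388, 2749, 1613, 1786, 2225 and 2551 FPKM under ABA. PETE1 levels were 271, 233, 113, 82.0, 93.4, 71.2 and 104 FPKM in mock and 317, 297, 135, 111, 141, 158 and 224 FPKM in ABA seedlings, in order of time. PETE2 (AT1G20340), the main plastocyanin, was called lower at 3, 6 and 9 h, while PETE1 (AT1G76100) was above its mock at all 7 times and was called higher at 6, 9, 12 and 24 h. The effect of PETE1 exceeded that of PETE2 at 7 of 7 times, by 0.28 to 1.27. The ratio of the PETE1 to the PETE2 level was 0.0449 in mock and 0.0571 under ABA for 0.5 h, and 0.0363 and 0.0879 at 24 h.

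FNR1 stood at 1246, 1069, 714, 480.4, 418, 352 and 591 FPKM in the mock pools from 0.5 to 24 h, and at 969, 949, 583, 419, 371, 485 and 519 FPKM in the ABA pools. FNR2 gave 1111, 970.1, 665, 451, 389, 332 and 444 FPKM under mock over the 7 times and 781, 771, 507, 334, 317, 319.7 and 378 FPKM under ABA. FNR2 was below the mock at all 7 times and was called lower at 0.5, 3 and 6 h, and FNR1 was below it at every time but 12 h, where it was called higher. PETC was also below the mock at every time but 12 h, where the pools held 1014 and 1016 FPKM, and it was called lower at 6 and 9 h. PETC spanned 1014 to 2392 FPKM in mock and 926 to 1847 FPKM under ABA. Of the 5, PETE1 and FNR1 were called higher at 12 h, where 18.7% of all genes were.

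The 2 ATP synthase genes of the list encode the gamma (ATPC1) and delta (ATPD) subunits. ATPC1 levels were 1058, 989, 672, 492, 516, 448 and 638 FPKM in mock and 948, 965, 534, 404, 482, 675 and 739 FPKM in ABA seedlings, in order of time. ATPD stood at 1729.8, 1343, 975, 815, 880.0, 727 and 1218 FPKM in the mock pools from 0.5 to 24 h, and at 1416, 1438, 729, 580.2, 739, 1076 and 1139 FPKM in the ABA pools. Both were below the mock at 3, 6 and 9 h and were called higher at 12 h, and the authors' deposited table called ATPD lower at 3 and 6 h.

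**Figure D5:**
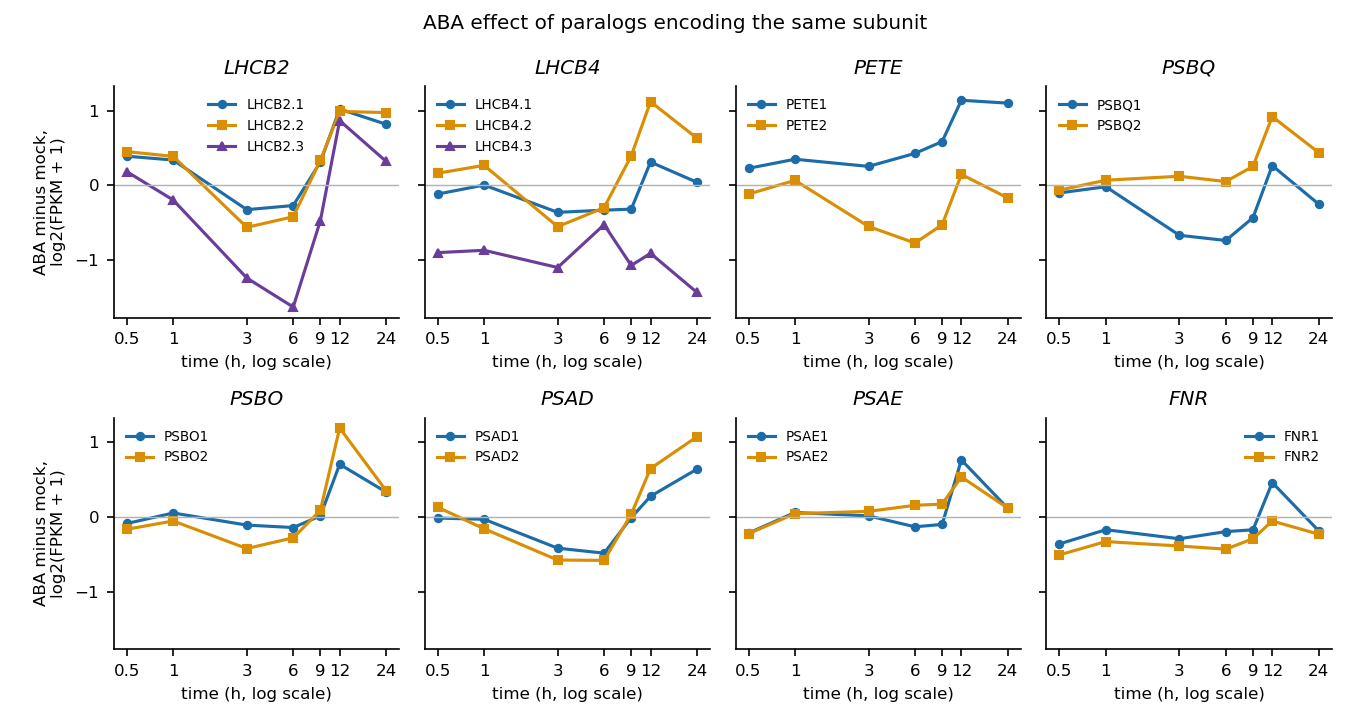
ABA effect (y axis, ABA minus mock on the log2(FPKM + 1) scale) against time (x axis, h, log scale) for paralogs that encode the same subunit, with 1 line per gene and 1 pooled value per pool. PETE1 lies above PETE2 and PSBQ2 above PSBQ1 at all 7 times, LHCB4.3 lies below LHCB4.1 at all 7 times, and the PSAE and PSAD lines cross.

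Upstream sequence was searched for motifs of light, clock and ABA control on both strands of the 250 bases before each start. The G-box CACGTG was found in 11 of the 50 (22%), against 6.49% of 27443 protein-coding genes. ACGTGNC was found in 18 (36%), against 8.57%, and it overlaps the G-box where CACGTG is followed by any base and C. The I-box core GATAAG was found in 12 (24%), against 12.3%. CCAATC, a site of the GLK factors of chloroplast development, was found in 14 (28%), against 10.2%. The CCA1 site AAAAATCT was found in 5 (10%), against 6.69%, and the evening element AAAATATCT in 2 (4%), against 2.36%. These shares were not tested, and a match is a description of the letters. LHCB4.3 and PETE1 hold none of the motifs searched in this window, and the same is true of LHCA2, LHCB3, LHCB5, PSAL, PSBO1 and PSBP1, among others.

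Genes around the light reactions were followed through fixed lists, whose counts are to be read against the 23.9% of all genes that passed upwards and the 23.2% that passed downwards in the averaged fit. Of 11 genes of photoprotection, state transitions, cyclic flow and ferredoxin, the averaged ABA effect passed upwards in ZEP (zeaxanthin epoxidase, on the path to ABA itself; 0.81) and PGRL1B (0.67), and downwards in the ferredoxins FD2 (-0.63) and FD1 (-0.45) and in VDE1, violaxanthin de-epoxidase (-0.31). The authors' deposited table called 7 of these 11 higher at 12 h, against 18.7% of all genes. Of 8 genes of the ELIP, OHP and LIL families, stress relatives of the antenna proteins, ELIP2 passed downwards (-1.02) and none upwards. LIL3:1 and SEP2 averaged -0.30 and 0.19, and ELIP1 had effects from 1.69 at 6 h to -1.56 at 24 h. Of 7 assembly factors, PSB28 (-0.66) and LPA1 (-0.31) passed downwards, and the thylakoid curvature genes CURT1A and CURT1B had the highest averages (0.15 and 0.085) without passing. Of 8 transcriptional regulators, the sigma factor SIG5 passed upwards (0.70) and SIG6 downwards (-0.33), and SIG4 averaged 0.20. GLK1, an activator of antenna genes, had effects of 0.14, 0.65, -0.88, -0.31, -0.066, 0.33 and 0.49, in order of time. Those of GLK2 were -0.68, -0.20, -0.79, -0.066, -0.12, 0.30 and 0.19. GLK1 was called higher at 1 and 24 h and lower at 3 h, and GLK2 lower at 0.5 and 3 h. Neither was called at 6, 9 or 12 h.

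Of 13 plastid-encoded partner genes, 12 passed upwards in the averaged fit, all but psaC, with a median of 1.09 over the 13, where 23.9% of all genes passed upwards. The largest were psaB (1.48) and psaA (1.401), which encode the photosystem I core, and atpB (0.33) and psaC (0.45) had the smallest. Their mean levels were 2.02 to 13.99 FPKM, and whether the libraries were made from polyadenylated RNA, in which plastid mRNA is scarce, is not stated in the labels.

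Root markers were followed as a measure of root RNA in the whole seedlings. Of 15 markers, where 23.9% of all genes passed upwards and 23.2% downwards, the averaged effect passed upwards in 7 (CASP1, COBL9, EXPA7, LRX1, PER64, PRP3 and RHD6) and downwards in PYK10 (-0.55) and PHT1;1 (-1.22), the largest upward ones being PRP3 (1.01) and LRX1 (0.86), with a median of 0.33. PYK10 is an abundant root beta-glucosidase and dominates the summed level. Without PYK10 the sum was higher under ABA up to 9 h: 173 FPKM in mock against 261 under ABA at 0.5 h, 199 against 268 at 1 h, 244 against 267 at 3 h, 182 against 205 at 6 h and 153 against 188 at 9 h. It was lower under ABA at 12 h (140.4 against 129) and at 24 h (142 against 131). At these times PHT1;1 alone was lower by more than the sum was: 40.2 FPKM in mock against 14.3 under ABA, and 32.0 against 17.4. With PYK10 the order was different, the sum being lower under ABA at every time but 1 h: 2532 against 2274 FPKM at 0.5 h, 2391 against 2402 at 1 h, 2023 against 1321 at 3 h, 1775 against 1068 at 6 h, 1866 against 1223 at 9 h, 1675 against 1264 at 12 h and 2419 against 1470.0 at 24 h. PHT1;1, a root phosphate transporter, was below its mock at all 7 times, the highest of its effects being -0.61. The direction of the summed root markers at 0.5, 3, 6 and 9 h thus depends on PYK10. Without PYK10, the direction at 12 and 24 h depends on PHT1;1. The part of root RNA in the members' effects was not tested.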

How the data were processed

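RNA of Col-0 seedlings was sequenced with paired ends on Illumina instruments (28 libraries, 2 for each of 14 groups). Reads were checked with FastQC and aligned with STAR to TAIR10, per the submitters' processing notes, which give no versions. The authors deposited 1 FPKM value per gene and group, pooled from the 2 libraries, with yes/no calls; the unit was inferred from the values. What quantified the reads, how libraries were pooled, and the test and threshold of the calls: not given in the sources used here. Nothing says that the 2 libraries are from separate cultures. The table holds no counts. The most common low value of FPKM times transcript length, less a fixed assumed offset, was taken as 1 fragment. It corresponds to about 35900000 to 50700000 fragments in a pool. That all low values are whole multiples of it was not tested.

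The planned fit to libraries could not be made on pooled values. The ABA effect is the difference of log2(FPKM + 1), whose pseudocount of 1 shrinks differences of low genes. The fits used limma 3.58.1 in R 4.3.3, with moderated variances that follow the mean, over the 20034 genes that reached 1 FPKM in 2 or more pools, with Benjamini-Hochberg adjustment at 0.05. It treats the 7 times as independent, and the spread between times includes real change, so that p-values can be too low if adjacent times resemble each other. The fits were tested on simulated data with independent noise around a flat mean and added effects. Such data hold no resemblance between adjacent times, so that this check does not bear on that limit. The members, the other lists, the phases (0.5 to 1, 3 to 6 and 9 to 24 h) and the tests were chosen with earlier results of these data known. Values in all pools are given for the most abundant member of each complex, those with the highest and lowest mean ABA effect, and paralogs of a subunit (LHCB1 copies were added after their values were seen). From the other lists come the 2 most changed in each direction or those that passed, and PETC, LHCB3 and single genes at the ends of a range were chosen after their values were seen. Names, coordinates and sequences come from RefSeq (TAIR10.1), matched by locus for 50 of 50 members. Alternatives were other pseudocounts, scalings, filters, a length correction, leaving out LHCB1 and leaving out each time.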

Additional observations from a re-analysis of the deposited data

Results flagged for a closer look

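The ABA effect of LHCB1.4 differed between phases: at 9 to 24 h it was 1.08 larger on the log2 scale than at 0.5 to 1 h (adjusted p 0.031 in limma, n = 7 times), and it was higher than the mock at all 7 times. Leaving out the 0.5, 1, 3 or 6 h pair gave adjusted p of 0.0577 to 0.148. The ABA effects of 27 members were below 0 at both 3 and 6 h and above 0 at both 12 and 24 h, so that their effects had opposite signs in the 2 phases. The same signs were found in 3.82% of all genes tested and in 6.5% of the 1799 genes whose mean was 100 FPKM or more. This pattern of signs was taken from the members' own effects, so that their higher share is no test of a difference. For these 27 the difference was not tested as a group, and gene by gene none passed after adjustment in the comparison of 9 to 24 h with 3 to 6 h.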

How the results depend on the processing

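No paired analysis was possible because the 2 libraries of a group, and with them the replicate numbers, are pooled into 1 value, and for the same reason leaving out each library was not run. The fits compare ABA with mock within each time. Of the summary values under their alternatives, 136 held, 44 moved and 3 reversed; of single genes, 158 held, 58 no longer passed and 0 reversed. The pseudocounts of 0.1 and 10 and median-of-ratios scaling moved no count of passing members by over 1.5 times. With no low filter, 2 members passed downwards in the averaged fit (4 with the filter), 0 upwards in late minus early (1), 5 downwards in the ABA slope (10) and 30 in the mock slope (45). Leaving out each time in turn gave 2 to 6 members downwards and 3 upwards in the averaged fit, 0 to 2 upwards for 9-24 h minus 3-6 h, 0 to 5 upwards for 9-24 h minus 0.5-1 h, 16 to 50 downwards for the mock slope and 2 to 35 downwards for the ABA slope.

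Requiring a 2-fold difference beside the authors' call left, as higher/lower members, 0/0 at 0.5 h, 0/0 at 1 h, 0/2 at 3 h, 0/1 at 6 h, 1/1 at 9 h, 7/0 at 12 h, 5/1 at 24 h. Without the LHCB1 copies, higher calls numbered 0 at 1 h, 0 at 3 h, 1 at 6 h and 2 at 9 h. Rescaling each pool to a sum of 1000000 moved the median of all genes to -0.11 at 3 h and -0.16 at 12 h (0.032 and -0.013 as deposited), and the member median to -0.53 at 3 h, -0.47 at 6 h, 0.48 at 12 h and 0.43 at 24 h. The member median at 1 h reversed, to -0.043 with that rescaling, -0.016 with median-of-ratios scaling and -0.025 with the length trend removed, and the last moved the 24 h median to 0.46. The cause was not tested. The values are pooled, so that no value has a replicate error.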
